A study of Homo sapiens with 4 samples.

Results

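The genes described here encode glycosyltransferases, the Golgi enzymes that build cell-surface glycans sugar by sugar, and their transcripts were assayed in RWP-1 cells, an established human line of pancreatic cancer cells. A gene was a member where its symbol in the platform annotation, the only symbol of its probe set, began as the families GALNT, B4GALT, B3GALT, B3GNT, B4GALNT, GCNT, MGAT, ST3GAL, ST6GAL, ST8SIA, FUT, C1GALT, EXT or EXTL do. The brightest probe set over the 4 arrays stood for a gene with more than 1. This gave 33 of 14884 named genes, 27 of them protein-coding and 6 pseudogenes or antisense RNAs, on 35 probe sets. The study compared untreated cells, labelled Ctrl (n = 2 arrays), with cells given rGAL1 (n = 2 arrays), an abbreviation read here as recombinant galectin-1; dose, time and vehicle are not in the labels. Separate cultures are not stated for the arrays within a group, so p-values reflect spread that may be purely technical. The array rGAL1 2 is placed in the rGAL1 group by its title and source name, while its treatment field reads none (Ctrl), which would make it a control. It was analysed as rGAL1, and values with it left out or counted as a control are given for the main results.

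Galectin-1 is a secreted sugar-binding protein whose main ligand is N-acetyllactosamine (LacNAc) at the ends of N-glycans and of branched O-glycans. Mucin-type O-glycans are started by the GALNT enzymes, which attach N-acetylgalactosamine to serine or threonine. C1GALT1 then adds galactose with the help of its chaperone C1GALT1C1, and later enzymes branch the glycan, extend it with LacNAc and cap it with sialic acid or fucose. The cap that ST6GAL1 adds masks the sugar from galectin-1. The EXT and EXTL proteins act on another kind of chain, heparan sulfate, a sulfated sugar polymer on proteoglycans that does not carry LacNAc.

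The members did not cover these steps evenly, and the set is better described by its families than as makers of galectin-binding sugars. It held 19 GALNT genes of the O-glycan start, C1GALT1C1 and its copy C1GALT1C1L, and the fucosyltransferase gene FUT2. Also in the set were 5 genes acting on heparan sulfate or its linker region, and 6 transcripts that encode no enzyme. Enzymes of LacNAc extension, of sialic acid capping and of N-glycan branching are not analysed here; the branching and sialic acid families are represented by pseudogenes and antisense RNAs alone. Of 11 genes listed as making or masking the galectin-1 site, 1 is analysed here, C1GALT1C1.

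Values are log2 expression per probe set, normalized by RMA. The median on an array lay between 4.69 and 4.72, and 4.70, the median of the probe sets' means, is used as the level under which a gene is called dim. The 2 Ctrl arrays differed with an SD of 0.30 over all 53617 probe sets and the 2 rGAL1 arrays with an SD of 0.29, while pairs taken across the groups gave 0.27 to 0.30, so groups were not tighter within than between. In the limma fit over all probe sets, 0 passed an adjusted p under 0.05 (0% of 53617), and the smallest adjusted p was 0.919. An unadjusted p under 0.05 (limma) was found for 2807 probe sets, 5.24% of all. The 6 analysed markers of pancreatic ductal cells all had means above the dim level. KRT18 lay between 12.36 and 12.44 and EPCAM between 9.88 and 9.98. The dimmest was KRT7, at 5.37 and 5.36 in Ctrl and 4.76 and 5.20 in rGAL1 (log2). Among markers of other cells, 2 of 4 leukocyte, 1 of 3 fibroblast, 1 of 3 endothelial, 2 of 3 acinar and 2 of 3 endocrine genes had means above it. The summed log2 values of the leukocyte markers were 20.79 and 21.15 in Ctrl and 21.47 and 21.74 in rGAL1, those of the acinar markers 14.42 and 13.90 against 14.69 and 15.06, and those of the ductal markers 55.10 and 55.21 against 54.45 and 54.91. In each of these 3 lists the sums of the groups did not overlap, but the genes of a list did not move together. In rGAL1, 3 leukocyte genes were higher and 1 lower, 2 acinar genes higher and 1 lower, and 2 ductal genes higher and 4 lower. The largest differences were 0.39 for CD68, 0.61 for CTRB1 and -0.38 for KRT7. The part of these markers in the differences below was not tested.

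Across the members, differences between rGAL1 and Ctrl were small, and no member passed the adjusted threshold (limma, smallest adjusted p = 0.919). Higher means in rGAL1 were found for 20 of 33 members, against 51.7% of named genes. At an unadjusted p under 0.05, 4 members were higher in rGAL1, EXTL2, GALNT16, GALNT5 and GALNT12, where 1.42% of all named genes were. Under the same threshold 1 was lower, the pseudogene MGAT4FP, where 1.57% of named genes were. Both rGAL1 arrays lay above both Ctrl arrays in 11 of 33 members, against 20.2% of named genes, and below them in 5 of 33, against 17% of named genes. The median difference over the members was 0.057 log2 units, a 1.04-fold level, and over all named genes it was 0.0056. Where rGAL1 2 was taken as a control the members' median was 0.025, and without rGAL1 2 it was 0.038. For a gene whose rGAL1 arrays agree, counting 1 of them as a control shrinks the difference and widens its SE, whichever label is right. For EXTL2 the SE went from 0.10 to 0.24. Values from that relabelling therefore cannot show which label is right. Each value is an average over a culture, so more RNA per cell and more cells with the transcript cannot be told apart. These counts describe a set chosen with earlier results of these data known.

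**Figure D1:**
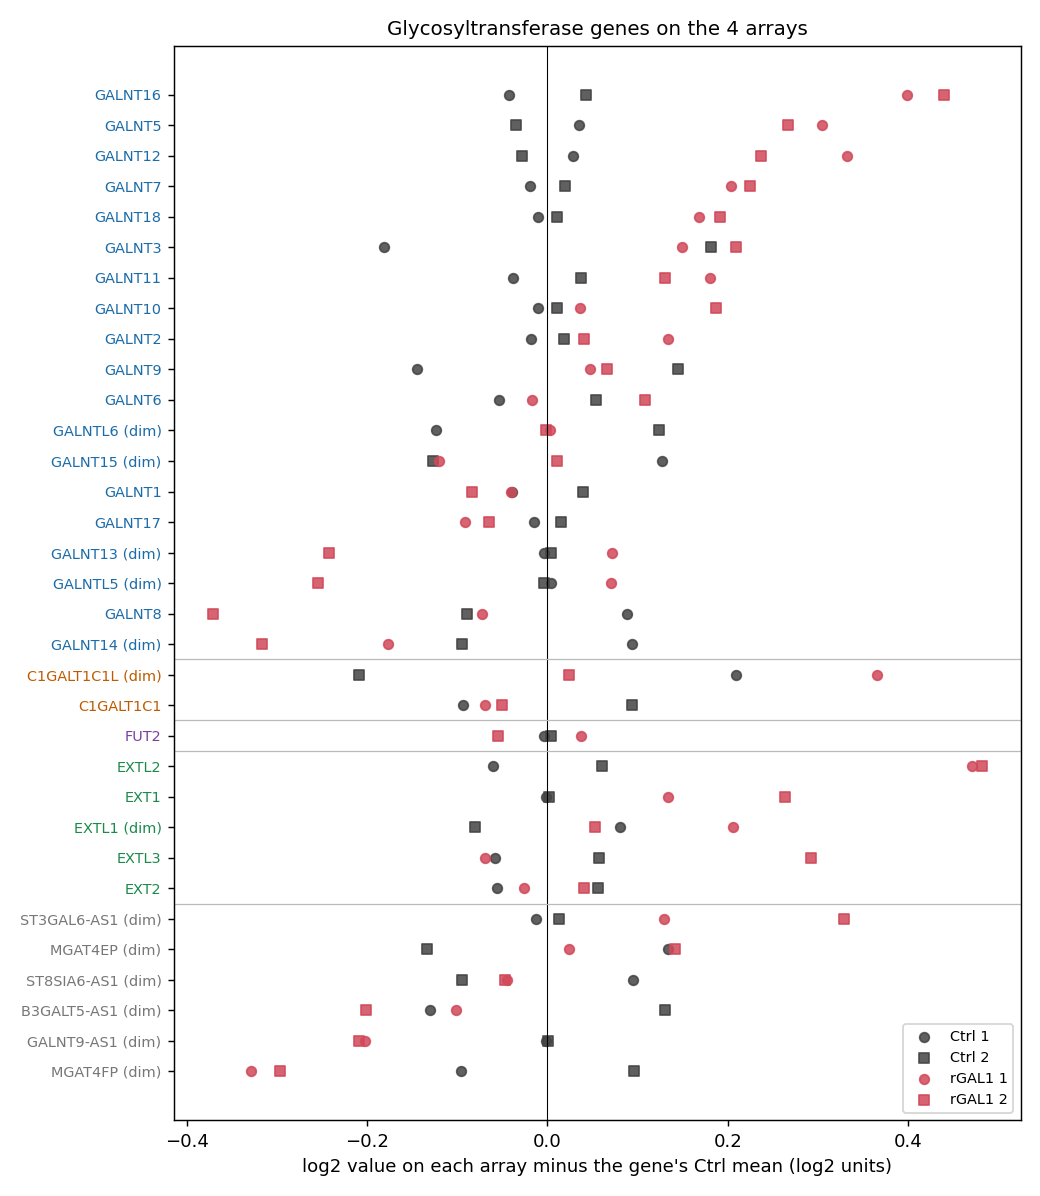
Each row is a member and each point an array, plotted as its log2 value minus the gene's Ctrl mean (log2 units); grey points are Ctrl, red points rGAL1, circles arrays numbered 1 and squares arrays numbered 2, row names are coloured by reaction class, and "dim" marks a mean at or below 4.70. For EXTL2 and GALNT16 both red points lie far to the right of both grey ones, while GALNT9 and C1GALT1C1 have grey points on both sides of the red.

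The member with the largest difference was EXTL2, an exostosin-like transferase that adds N-acetylhexosamine to the linker region of proteoglycans. It measured 5.29 and 5.41 on the Ctrl arrays and 5.82 and 5.83 on the rGAL1 arrays (log2). The rGAL1 arrays were nearly equal, and the lower of them lay 0.41 above the higher Ctrl array. The difference was 0.48 (SE 0.10, 95% interval 0.20 to 0.75), a 1.39-fold level, with an unadjusted p of 0.00691 (limma, adjusted p = 0.919). Leaving out any 1 array kept it between 0.42 and 0.54. Counting rGAL1 2 as a control gave 0.31, a fall that follows by arithmetic where the rGAL1 arrays are this close.

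GALNT16, a GalNAc transferase of the same subfamily as GALNT2 and GALNT14, came next. It measured 6.36 and 6.44 in Ctrl and 6.80 and 6.84 in rGAL1 (log2). The groups were apart by 0.36, 4.20 times the 0.085 that parted the Ctrl arrays. Its difference was 0.42 (SE 0.10, 95% interval 0.15 to 0.68), a 1.34-fold level, with an unadjusted p of 0.0102 (limma, adjusted p = 0.919). It stayed between 0.38 and 0.46 without any 1 array, and was 0.25 where rGAL1 2 was taken as a control.

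GALNT12, which acts mainly on peptides that already carry GalNAc, measured 6.69 and 6.63 in Ctrl and 6.99 and 6.90 in rGAL1 (log2). Its groups did not overlap, and the difference was 0.28 (SE 0.10, 95% interval 0.015 to 0.55), with an unadjusted p of 0.0422 (limma, adjusted p = 0.919). GALNT5, another GalNAc transferase, measured 8.12 and 8.05 in Ctrl and 8.39 and 8.35 in rGAL1 (log2). Both rGAL1 arrays were again above both Ctrl arrays, by 0.29 on average (SE 0.10, 95% interval 0.024 to 0.55; limma, unadjusted p = 0.0379, adjusted p = 0.919). For both genes the interval ends close to 0. The difference ranged from 0.24 to 0.33 for GALNT12 and from 0.25 to 0.32 for GALNT5 when 1 array was left out, with unadjusted p values above 0.05 in each of those fits.

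Of the 4 higher genes, 3 have an entry in the RefSeq promoter table (GRCh38.p14), and the 250 bases before their annotated start are printed 5′ to 3′ on the gene's strand, so that the regions of the genes with the largest differences can be compared. The stretches are chr1:100894843-100895092 (minus strand) for EXTL2, chr14:69259908-69260157 (plus strand) for GALNT16 and chr9:98807420-98807669 (plus strand) for GALNT12. Capitals mark 4 motifs searched on both strands: the E-box CACGTG, the GC box GGGCGG, the CCAAT box CCAAT and the TATA box TATAAA.
EXTL2: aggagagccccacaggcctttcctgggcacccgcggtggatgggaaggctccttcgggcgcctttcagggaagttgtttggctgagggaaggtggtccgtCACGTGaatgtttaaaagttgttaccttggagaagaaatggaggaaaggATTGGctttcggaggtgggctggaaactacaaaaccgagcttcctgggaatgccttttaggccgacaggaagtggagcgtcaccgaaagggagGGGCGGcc
GALNT16: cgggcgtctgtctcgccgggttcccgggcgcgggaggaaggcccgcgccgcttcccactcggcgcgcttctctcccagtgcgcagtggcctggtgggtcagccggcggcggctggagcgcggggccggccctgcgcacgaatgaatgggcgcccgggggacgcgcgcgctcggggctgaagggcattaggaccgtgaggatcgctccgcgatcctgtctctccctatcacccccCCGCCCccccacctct
GALNT12: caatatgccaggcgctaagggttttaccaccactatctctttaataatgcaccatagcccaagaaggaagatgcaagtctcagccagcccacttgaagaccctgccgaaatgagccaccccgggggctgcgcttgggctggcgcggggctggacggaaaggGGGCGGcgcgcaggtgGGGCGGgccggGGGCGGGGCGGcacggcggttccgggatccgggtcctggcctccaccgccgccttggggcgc

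The stretches have little in common beyond a GC box. EXTL2 holds 1 E-box, 1 CCAAT box and 1 GC box, the last of these close to the start, and 56.8% of its bases are G or C. GALNT16 holds 1 GC box in a stretch of 74.8% G and C, and GALNT12 holds 4 GC boxes, a pair of them overlapping, at 67.2%. None of the 3 holds the TATA letters. Over the 31 promoter entries of the 24 members in the table, 67.7% hold a GC box, against 42.6% of all 35116 entries, 9.68% an E-box against 6.34%, 22.6% a CCAAT box against 32.0%, and 6.45% a TATA box against 10.7%. The median G and C content is 69.6% for the members' entries and 58.0% for all entries, and its part in these shares was not tested. Matching letters are a description and show no bound factor.

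Among the 19 GALNT genes of the O-glycan start, 12 had a higher and 7 a lower mean in rGAL1. Both rGAL1 arrays lay above both Ctrl arrays in 8 and below them in 3, and the median difference was 0.057 log2 units. That median rested on Ctrl 1: without it, it was -0.0024, and without the other arrays in turn it was 0.066 to 0.12. The 5 dim GALNT genes, GALNT13, GALNT14, GALNT15, GALNTL5 and GALNTL6, had differences between -0.25 and 0.00088. The 14 with means above the dim level had a median difference of 0.13 (0.085 to 0.19 without 1 array), 8 lying wholly above and 2 wholly below Ctrl. Of these 14, 11 had a higher mean in rGAL1. Among all named genes above the dim level, 53.2% had a higher mean, 22.2% lay wholly above, 17% wholly below, and the median difference was 0.0091.

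Behind GALNT16, GALNT5 and GALNT12, several genes showed smaller differences with close replicates. GALNT7, which like GALNT12 prefers peptides already carrying GalNAc, measured 6.68 and 6.72 in Ctrl and 6.90 and 6.92 in rGAL1 (log2), a difference of 0.21 (SE 0.098; limma, unadjusted p = 0.0834). GALNT18, of a subfamily with little activity in enzyme assays, measured 6.44 and 6.47 in Ctrl and 6.62 and 6.65 in rGAL1 (log2), a difference of 0.18 (SE 0.097). In both genes the arrays of a group lay within 0.039 of each other. GALNT11, which modifies receptors of the LDL receptor family, measured 6.71 and 6.79 against 6.93 and 6.88 (log2), with a difference of 0.16 (SE 0.10). The intervals of these 3 genes include 0, reaching down to -0.042, -0.075 and -0.11. Their differences moved by under 1.5 times when any 1 array was left out, and with rGAL1 2 counted as a control they were 0.13 for GALNT7, 0.10 for GALNT18 and 0.14 for GALNT11.

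Other members of the family gave differences that turned in sign or shrank towards 0 in some fits. GALNT3, known for modifying the hormone FGF23, measured 6.54 and 6.91 in Ctrl and 6.87 and 6.94 in rGAL1 (log2). Its higher Ctrl array lay between the rGAL1 arrays, and its difference of 0.18 became -0.0024 without Ctrl 1. GALNT6, the nearest relative of GALNT3, had a difference of 0.046 (95% interval -0.24 to 0.34), which turned to -0.0077 without Ctrl 1 and -0.017 without rGAL1 2. GALNT10, another transferase acting on glycosylated peptides, measured 5.62 and 5.64 in Ctrl and 5.66 and 5.82 in rGAL1 (log2), wholly above Ctrl by 0.026. Its difference of 0.11 (95% interval -0.17 to 0.40) stayed between 0.037 and 0.19 without 1 array. It was -0.026 with rGAL1 2 counted as a control. GALNT9, a brain-enriched member, had a difference of 0.057 (95% interval -0.30 to 0.41), which turned to -0.088 without Ctrl 1.

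Close relatives in the family did not share a direction throughout. GALNT2, which modifies several plasma lipoproteins, measured 7.11 and 7.15 in Ctrl and 7.27 and 7.17 in rGAL1 (log2), a difference of 0.087 (SE 0.10) that was 0.041 without rGAL1 1. Its dimmer probe set gave 0.11 (SE 0.19) with overlapping groups. GALNT14, its relative and that of GALNT16, measured 4.90 and 4.71 in Ctrl and 4.63 and 4.49 in rGAL1 (log2), so that it lay wholly below Ctrl, with a mean just under the dim level. The difference was -0.25 (SE 0.12, 95% interval -0.57 to 0.075), and -0.15 without Ctrl 1. GALNT1, a broadly expressed transferase, measured 9.50 and 9.58 in Ctrl and 9.50 and 9.45 in rGAL1 (log2). The groups touched, with 0.0012 between them, and the difference was -0.062 (95% interval -0.33 to 0.20). GALNT13, the brain form closest to GALNT1, was dim and differed by -0.085 (95% interval -0.45 to 0.28).

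The lowest differences above the dim level were those of GALNT8 and GALNT17. GALNT8 measured 5.64 and 5.47 in Ctrl and 5.48 and 5.18 in rGAL1 (log2), overlapping by 0.016. Its difference of -0.22 (SE 0.15, 95% interval -0.61 to 0.17) was the lowest among the GALNT genes above the dim level. It was -0.073 without rGAL1 2 and -0.37 without rGAL1 1, and it turned to 0.051 with rGAL1 2 counted as a control. GALNT17, of the same low-activity subfamily as GALNT8, GALNT9 and GALNT18, lay wholly below Ctrl but by 0.050 alone, with a difference of -0.078 (95% interval -0.33 to 0.18). The 4 genes of that subfamily thus spread from -0.22 for GALNT8 over -0.078 for GALNT17 and 0.057 for GALNT9 to 0.18 for GALNT18. GALNT15 differed by -0.055, and GALNTL5, a testis form without transferase activity, by -0.092, both dim with overlapping groups.

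Pairs of members lie next to each other in the genome. GALNT7 and GALNTL6 have 0 protein-coding genes between them on chromosome 4, and GALNT11 and GALNTL5 have 0 between them on chromosome 7 (RefSeq, GRCh38.p14). In each pair the gene above the dim level had the higher mean in rGAL1, 0.21 for GALNT7 and 0.16 for GALNT11. The dim neighbour lay at 0.00088 for GALNTL6 and -0.092 for GALNTL5. On chromosome 2, GALNT5 (0.29) and GALNT13 (-0.085) have 4 protein-coding genes between them.

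**Figure D2:**
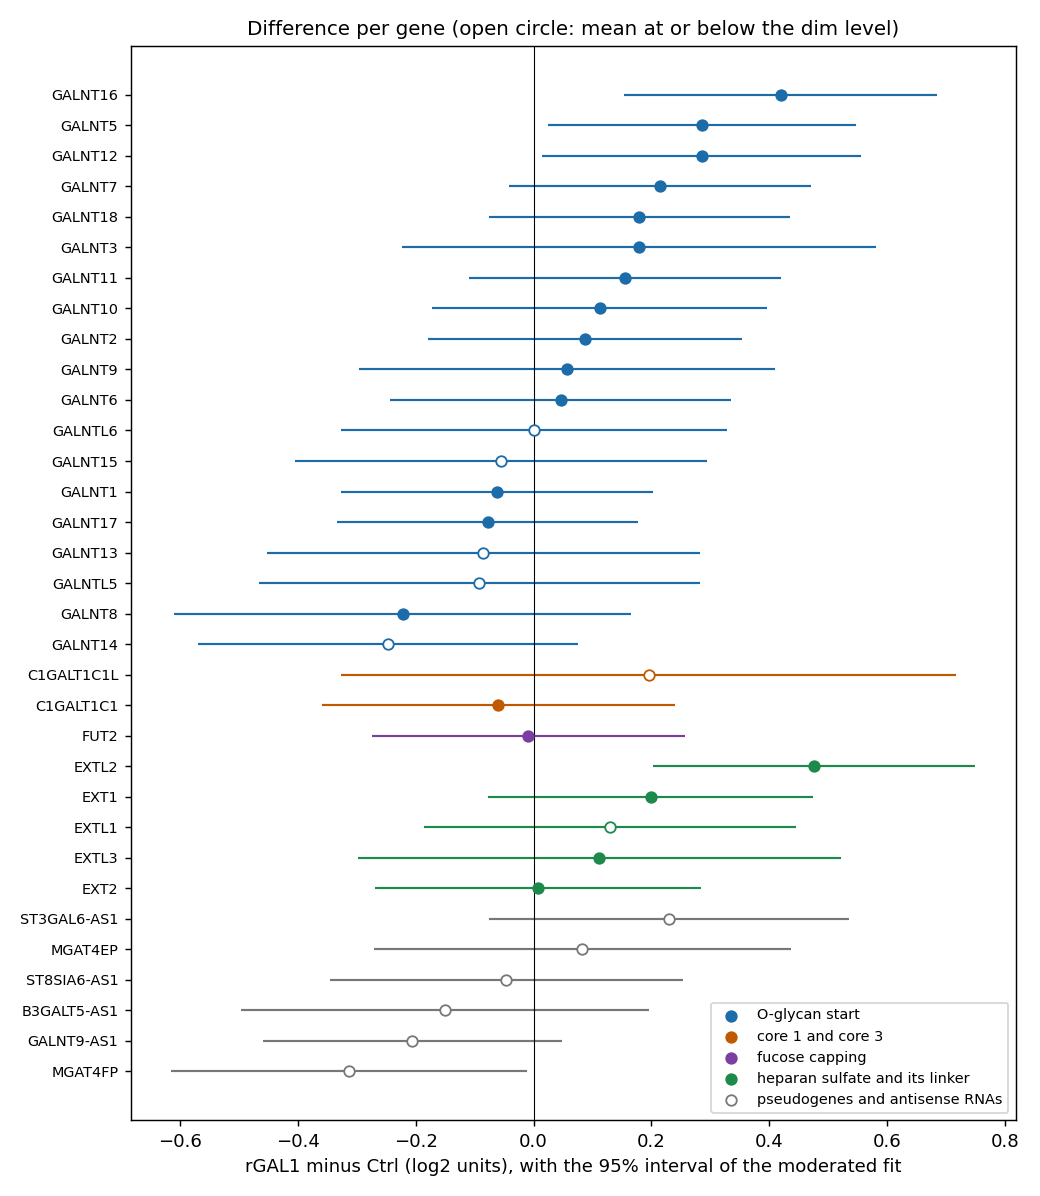
Each row is a member, the circle is its rGAL1 minus Ctrl difference (log2 units) and the line its 95% interval from the moderated limma fit, with colours for the reaction classes and open circles for means at or below the dim level. The intervals of EXTL2, GALNT16, GALNT5 and GALNT12 lie above 0 and that of MGAT4FP below it, before any adjustment for the number of probe sets; all others include 0.

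The steps after the start of the O-glycan were represented by 2 genes of core 1 synthesis and by FUT2. C1GALT1C1, the chaperone without which core 1 galactose is not added, measured 5.96 and 6.15 in Ctrl and 5.98 and 6.003 in rGAL1 (log2). Both rGAL1 arrays fell between the Ctrl arrays, and the difference was -0.060 (SE 0.11, 95% interval -0.36 to 0.24); it was 0.034 without Ctrl 2. The interval leaves room for a 1.28-fold lower or a 1.18-fold higher level. C1GALT1C1L, an intronless copy, was dim, measured 4.27 and 3.85 against 4.42 and 4.08 (log2), and differed by 0.20 (95% interval -0.33 to 0.72), or -0.014 without Ctrl 2. As a copy it may share probe sequence with C1GALT1C1, which was not examined, so its value is uncertain. FUT2, which adds the terminal fucose of H antigens in secretory epithelia, measured 6.15 and 6.16 in Ctrl and 6.19 and 6.10 in rGAL1 (log2). It differed by -0.0086 (SE 0.10, 95% interval -0.27 to 0.26), and its sign turned to 0.038 without rGAL1 2.

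All 5 exostosin genes, which act on heparan sulfate or its linker region, were higher in mean under rGAL1, EXT2 by 0.0073 alone. The median difference was 0.13 (0.13 to 0.26 without 1 array, and 0.046 with rGAL1 2 counted as a control). Higher means were found for 51.7% of named genes. In 2 of the 5, EXTL2 and EXT1, both rGAL1 arrays lay above both Ctrl arrays, against 20.2% of named genes. EXT1, a subunit of the heparan sulfate polymerase, measured 7.31 and 7.32 in Ctrl and 7.45 and 7.58 in rGAL1 (log2), a difference of 0.20 (SE 0.11, 95% interval -0.077 to 0.47; limma, unadjusted p = 0.121). Counting rGAL1 2 as a control reduced this to 0.046. Its partner subunit EXT2 measured 7.41 and 7.52 in Ctrl and 7.44 and 7.51 in rGAL1 (log2), with the rGAL1 arrays between the Ctrl arrays and a difference of 0.0073 (95% interval -0.27 to 0.28). EXT2 had no stable direction, at -0.049 without Ctrl 1, -0.026 without rGAL1 2 and -0.040 with rGAL1 2 counted as a control.

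The remaining exostosin-like genes varied more between arrays. EXTL3, which starts the heparan sulfate chain, measured 5.67 and 5.78 in Ctrl and 5.66 and 6.02 in rGAL1 (log2). The rGAL1 arrays enclosed the Ctrl arrays, so that its difference of 0.11 was 0.29 without rGAL1 1 and -0.069 without rGAL1 2. EXTL1 was dim, with a difference of 0.13 (95% interval -0.19 to 0.44) that was 0.049 without Ctrl 2. Differences within the class were not tested against each other.

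**Figure D3:**
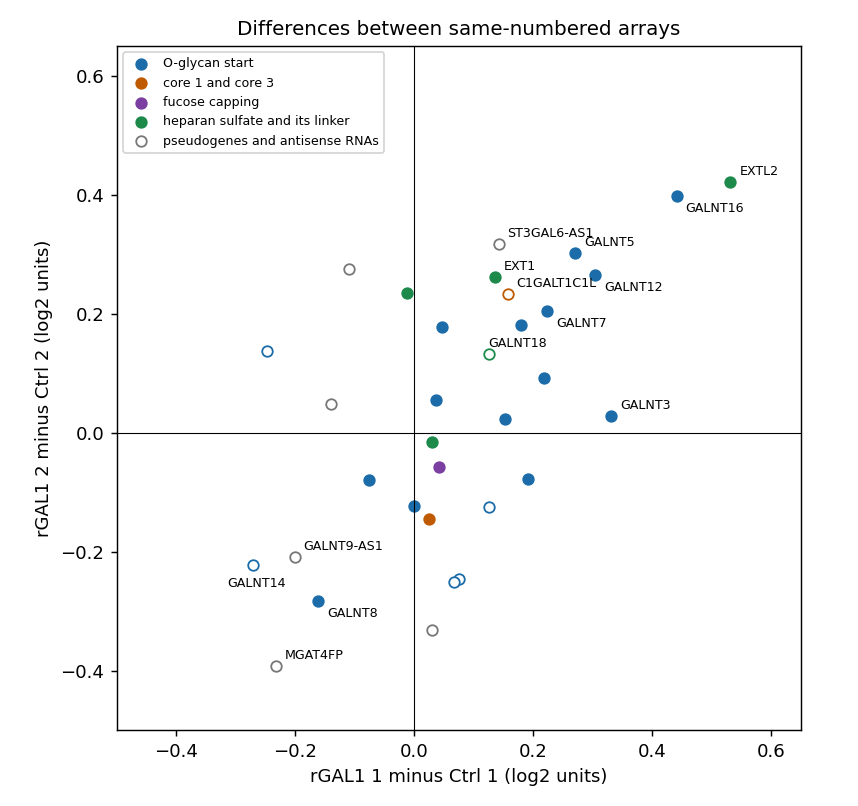
Each point is a member, with the rGAL1 1 minus Ctrl 1 difference on the horizontal axis and the rGAL1 2 minus Ctrl 2 difference on the vertical axis (both log2 units), coloured by reaction class and open where the mean is at or below the dim level. EXTL2 (0.53 and 0.42) and GALNT16 (0.44 and 0.40) lie farthest out in both directions, while GALNT3 (0.33 and 0.028) is far from 0 between the arrays numbered 1 alone; the numbers were not found to pair the arrays, so these are 2 differences between single arrays.

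The 6 members that encode no enzyme were all dim. MGAT4FP, a pseudogene of the N-glycan branching family, measured 4.33 and 4.52 in Ctrl and 4.10 and 4.13 in rGAL1 (log2), wholly below Ctrl. The difference was -0.31 (SE 0.12, 95% interval -0.61 to -0.010; limma, unadjusted p = 0.0450, adjusted p = 0.919), and between -0.41 and -0.22 without 1 array. The unadjusted p (limma) was 0.038 without Ctrl 1 but between 0.116 and 0.176 without any 1 of the other arrays. It was also above 0.05 in limma on repeated quantile normalization (0.0530) and centring (0.0544). The same held with an intensity trend (0.0880), the replicate block (0.0619) and the mean of both probe sets (0.0671). In the limma fit of probe sets with 1 symbol only it was lower, at 0.0225. MGAT4FP differed by -0.23 with rGAL1 2 counted as a control. Its dimmer probe set measured 3.61 and 3.79 against 3.34 and 3.54, also without overlap, and differed by -0.26 (SE 0.13). As a pseudogene it may share probe sequence with related transcripts, and its value is uncertain for that reason.

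GALNT9-AS1, transcribed opposite GALNT9, had the closest replicates among these. It measured 4.59 on each Ctrl array and 4.38 on each rGAL1 array (log2), a difference of -0.21 (SE 0.097, 95% interval -0.46 to 0.048; limma, unadjusted p = 0.0906). GALNT9 itself had overlapping groups, as given above, and whether these probe sets tell the strands apart is not stated in the labels. ST3GAL6-AS1 lay wholly above Ctrl, with 4.01 and 4.03 in Ctrl and 4.15 and 4.35 in rGAL1, and differed by 0.23 (SE 0.12), or 0.020 with rGAL1 2 counted as a control. MGAT4EP (0.082), ST8SIA6-AS1 (-0.046) and B3GALT5-AS1 (-0.15) had overlapping groups. These transcripts say nothing about the level of the enzymes whose symbols they carry.

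Leaving out 1 array at a time separated the members into a steady and an unsteady part. The difference of 14 of the 33 changed sign in at least 1 of the 4 fits, and that of 22 changed sign or moved by over 1.5 times. Shares over all named genes were not computed for these or the following counts, so they show no trait particular to the members. The 11 steady members were EXTL2, GALNT16, GALNT5, GALNT12, GALNT7, EXT1, GALNT18 and GALNT11 on the higher side and GALNT17, GALNT9-AS1 and MGAT4FP on the lower side. Each of these fits leaves 1 array alone in its group, which is assumed to vary like the other group. With rGAL1 2 counted as a control, 9 of the 33 differences changed sign and 25 changed sign or moved by over 1.5 times. Of the 11 steady members 6 moved by over 1.5 times and 0 changed sign. That 0 was fixed in advance, since the rGAL1 arrays of a steady member lie too close together for its sign to turn. The 6 is no measure of steadiness either. With equal rGAL1 arrays the relabelling shrinks a difference 1.5 times by arithmetic, and it shrinks more where rGAL1 2 lies farther from Ctrl than rGAL1 1. These counts do not show which label of rGAL1 2 is right.

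**Figure D4:**
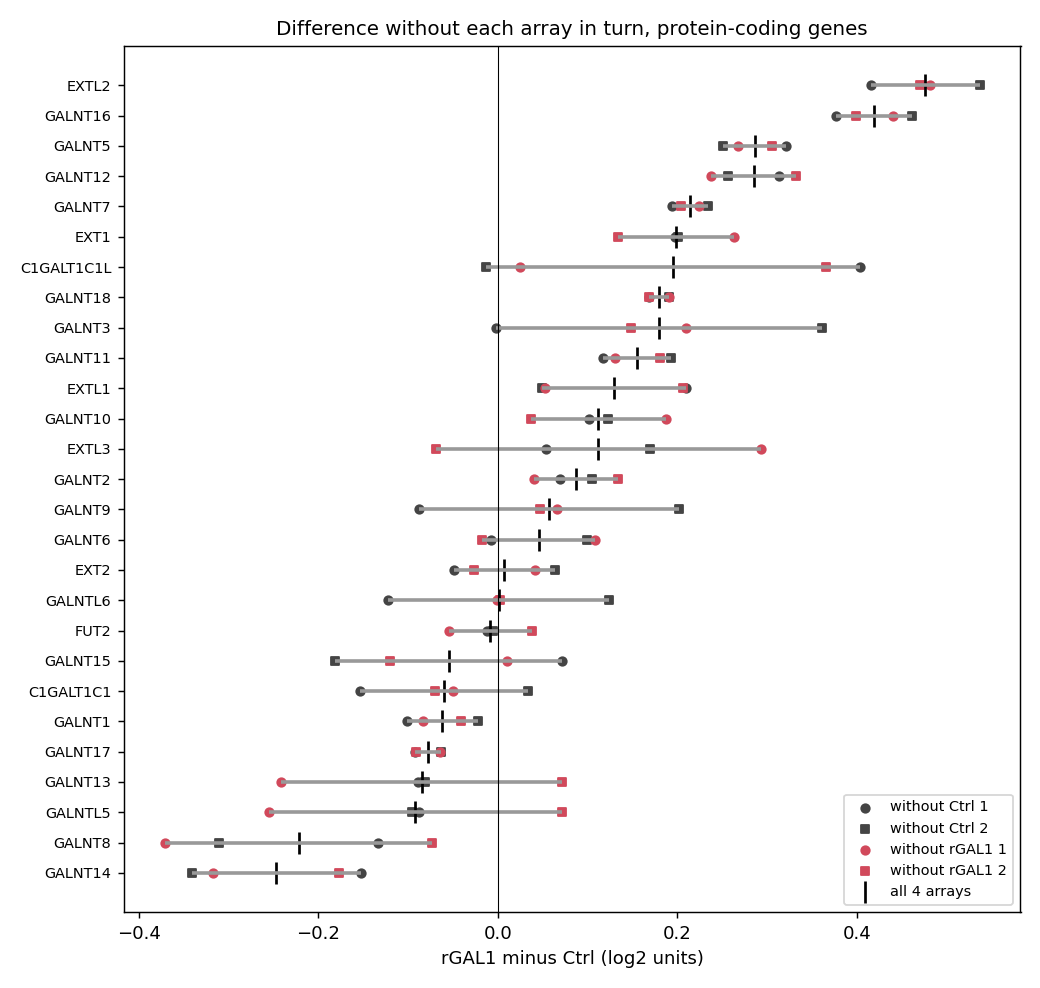
Each row is a protein-coding member, ordered by its difference over all 4 arrays (black tick, rGAL1 minus Ctrl in log2 units), and the points give the difference with 1 array left out, grey where a Ctrl array and red where an rGAL1 array was omitted. The rows of EXTL2, GALNT16, GALNT5, GALNT12, GALNT7, EXT1, GALNT18 and GALNT11 stay right of 0, while those of GALNT3, GALNT9, EXTL3 and C1GALT1C1 reach or cross it.

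Enzymes that supply the sugar donors, and those that modify heparan sulfate, were examined beside the transferases from lists of known pathway genes. Of 18 analysed genes of nucleotide sugar synthesis, 9 were higher and 9 lower in mean under rGAL1, and the median was 0.0074. It had no stable direction, at -0.0026 without Ctrl 1, -0.013 without Ctrl 2, 0.025 without rGAL1 1 and 0.037 with rGAL1 2 counted as a control. Of these genes 0 were higher and 1 lower at an unadjusted p under 0.05, where 1.42% and 1.57% of named genes were. The lower gene was GNE, which catalyses the committed steps of sialic acid synthesis. It measured 5.25 and 5.46 in Ctrl and 4.96 and 4.94 in rGAL1 (log2), with both rGAL1 arrays below both Ctrl arrays. The difference was -0.41 (SE 0.12; limma, unadjusted p = 0.0197, adjusted p = 0.919), between -0.51 and -0.30 without 1 array and -0.26 with rGAL1 2 counted as a control. The other analysed enzymes of sialic acid synthesis are in the same list and had unadjusted p values of 0.05 or more.

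Of 20 analysed genes that modify or prime heparan sulfate, 14 were higher and 6 lower in mean under rGAL1, and the median was 0.093 (0.054 without rGAL1 1 and 0.12 without Ctrl 1). Both rGAL1 arrays lay above both Ctrl arrays in 7 of the 20 and below them in 2, against 20.2% and 17% of named genes. HS6ST1, a sulfotransferase acting on heparan sulfate, was the 1 gene at an unadjusted p under 0.05. Of all named genes, 1.42% were higher and 1.57% lower at that threshold. HS6ST1 measured 5.41 and 5.43 in Ctrl and 5.66 and 5.75 in rGAL1 (log2). The difference was 0.28 (SE 0.10, limma, unadjusted p = 0.0409, adjusted p = 0.919), and 0.13 with rGAL1 2 counted as a control. No gene of either list passed the adjusted threshold.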

How the data were processed

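RNA of 4 samples of RWP-1 cells (2 Ctrl, 2 rGAL1) was hybridised to single-channel arrays after labelling of 100 ng with a whole-transcript kit, per the labels' protocols. The deposited values are log2 expression per probe set. The submitters' processing notes name RMA and limma; versions, settings and genome build were not given in the sources used here. This normalization can compress differences of dim probe sets.

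All 53617 probe sets were fitted in limma 3.58.1 under R 4.3.3 (lmFit, then eBayes, no block, two-sided, Benjamini-Hochberg adjustment over all probe sets, threshold 0.05); the fit had 2 residual and 2.75 prior degrees of freedom, and its code was tested on simulated data. Differences are rGAL1 minus Ctrl. The number of arrays limits precision, with a median SE of 0.11 over the members. Probe sets with 1 symbol numbered 16098, and all 33 member symbols were current in RefSeq.

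The rule for named genes took members at an unadjusted p under 0.05, the highest and lowest member of each class above the dim level, and genes that make or mask the galectin-1 site; the other members are given so that each is accounted for. Members, classes and lists were chosen with earlier results of these data known. Alternatives covered normalization, dim probe sets, the variance prior, pairing, the probe set per gene, single arrays and the conflicting label.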

Additional observations from a re-analysis of the deposited data

How the results depend on the processing

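The count of probe sets past the adjusted threshold in limma was 0 in each fit run, at an adjusted p under 0.1, with the replicate block and without 1 array (0 to 0) included. The members' median difference of 0.057 became 0.071 with each array centred on its median, 0.11 over the 20 members above the dim level (a choice also made after seeing the data; 0.061 without Ctrl 1, 0.18 without Ctrl 2 and 0.053 with rGAL1 2 counted as a control), 0.025 with rGAL1 2 counted as a control, and 0.038 to 0.064 without 1 array. The 5 members at an unadjusted p under 0.05 (limma) became 2 with the replicate block, 0 with rGAL1 2 counted as a control, and 1 to 3 without 1 array, where fewer degrees of freedom remain. Arrays sharing a number deviated from their group means with a correlation of -0.048, so the numbers were not taken to pair the arrays. Groups that do not overlap numbered 16, and 22 to 26 without 1 array, where by construction fewer values must be apart. Other settings left these counts within 1.5 times. FUT2 turned from -0.0086 to 0.0054 on centring and also with rGAL1 2 left out or counted as a control. EXT2 turned from 0.0073 to -0.00066 on repeated quantile normalization, and also without Ctrl 1 and with rGAL1 2 left out or counted as a control. The core 1 median turned from 0.068 to -0.060 with dim probe sets left out, where 1 gene remains, and also without rGAL1 1. The O-glycan start turned without Ctrl 1, as given above. Dim members may carry little signal over background, which was not measured, and RMA can understate their differences.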

Other observations

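Other genes of the glycan machinery, from the same lists, showed no member at an unadjusted p under 0.05 (limma) and 0 past an adjusted p under 0.05. Of 19 analysed carbohydrate sulfotransferases, which add sulfate to glycan chains, 6 had higher and 13 lower means in rGAL1. Their median difference was -0.062 log2 units, -0.011 without Ctrl 1, 0.0097 without Ctrl 2 and 0.047 with rGAL1 2 counted as a control. Of 12 analysed Golgi tethering and ion transport genes, among them the COG complex that keeps glycosyltransferases in place, 9 had higher means, with a median of 0.026 (0.0091 without Ctrl 1 and 0.063 without Ctrl 2). In 6 of these 12 both rGAL1 arrays lay above both Ctrl arrays and in 0 below, while 20.2% of named genes lay wholly above.

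Of 12 analysed glycoproteins known to bind galectin-1, 9 were higher in mean under rGAL1, and the median was 0.032 (0.039 to 0.048 without 1 array). The highest difference was 0.17 for SPN, which was dim, and above the dim level it was 0.13 for LAMP2. In 5 of these 12, SPN among them, the groups did not overlap, each with rGAL1 higher. Among named genes 20.2% lay wholly above and 17% wholly below. Of 6 analysed sialidases and other sugar-removing enzymes, 4 had higher means, with differences between -0.098 and 0.040. The glucosidase genes MOGS and PRKCSH, whose products trim new N-glycans, were the 2 analysed genes of the trimming list and differed by 0.20 (MOGS) and -0.0065 (PRKCSH). Galectins and Golgi nucleotide sugar transporters are not analysed here.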
